A study of Rattus norvegicus with 6 samples.

Results

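The genes described here encode the cytoplasmic adaptors that join integrins to actin: integrin-linked kinase (Ilk), its PINCH partners (Lims1, Lims2) and parvin partners (Parva, Parvb), the PINCH-binding Ras suppressor (Rsu1), kindlin-2 (Fermt2), the talins (Tln1, Tln2) and vinculin (Vcl). They were taken by name from a deposited expression table of 33300 genes. Levels are in FPKM (fragments per kilobase of gene), corrected for length and scaled per library by the authors. Each of the 10 names had 1 row. All 10 had a mean of at least 1 FPKM, as 12733 genes of the table did. The RNA came from cultured rat tendon stem/progenitor cells, the cells from which tendon renews its fibroblasts, at day 7. The cells of 3 libraries (NAC 1 to NAC 3) grew in F12 to which N-acetyl-L-cysteine (NAC), a thiol antioxidant and cysteine source, was added at 500 uM, and those of the other 3 (Control 1 to Control 3) in F12 medium alone. Both groups carry the genotype label "tenogenic differentiation", and no label tells whether replicate libraries stem from different cultures or animals, so p-values measure the spread between these libraries, which may be technical.

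Integrins have no enzyme activity of their own. Talin and kindlin bind the tail of the β subunit and shift the receptor into its active state, and talin, once stretched, exposes sites for vinculin, which ties it to actin filaments. ILK, a pseudokinase, forms a tight complex with 1 PINCH and 1 parvin protein, and this complex links kindlin-bearing adhesions to actin and stabilises its own subunits. In tendon cells such adhesions carry the pull between the collagen matrix and the cytoskeleton.

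Between 12487215 and 14941949 reads per library could be recovered from the deposited values. Every pair of libraries in a group differed by more than counting noise, and the 2 pairs with Control 2 differed most (chi-square per degree of freedom 9.02 and 9.20, against 3.59 to 5.27 in the other 4 pairs). The fibroblast genes Col1a1 (5453 and 2731 FPKM in NAC and Control), Thy1 (1009 and 916 FPKM) and Pdgfra (220 and 233 FPKM) were high, and the tendon regulator Scx was present (11.6 and 12.5 FPKM). Of the other tendon fibroblast markers, Col1a2 (800 and 601 FPKM) and Thbs4 (797 and 584 FPKM) were high. Mkx (3.90 and 5.28 FPKM) and Tnmd (2.55 and 1.41 FPKM) were low. Ptprc and Cd3e of leukocytes, Cdh5 of endothelium, Pax7 of muscle and Krt18 of epithelium were listed at 0 in all 6 libraries, while Cd68 (4.33 and 5.18 FPKM) and Lyz2 (5.27 and 5.59 FPKM) of macrophages, Krt8 of epithelium (1.01 and 1.06 FPKM) and Kdr of endothelium (0.390 and 0.251 FPKM) were low. Of 5 markers of smooth muscle and pericytes, the 1 above 1 FPKM was Myh11, smooth muscle myosin, which was lower with NAC (17.2 ± 1.40 and 21.9 ± 0.486 FPKM in NAC and Control; SD, n = 3; limma adjusted p = 0.0269), a call that held in 1 of 6 fits that left out a library. The summed level of those 5 genes was 16.4 to 19.4 FPKM in NAC and 22.6 to 23.2 FPKM in Control. Outside that list, several other contractile smooth muscle genes were present and not called with the authors' scaling. They were Acta2 (278 and 366 FPKM in NAC and Control; log2 fold change -0.40, limma adjusted p = 0.0655) and Tagln (415 and 477 FPKM; -0.20, adjusted p = 0.243). Both were called lower with libraries scaled to their totals (adjusted p = 0.0101 and 0.0231), where 32.9% of all genes were called. Quantile normalization, where 7.66% of all genes were called, also called both lower (adjusted p = 0.0171 and 0.0303). Cnn1 (33.0 and 41.0 FPKM; adjusted p = 0.246) and Myl9 (139 and 141 FPKM; adjusted p = 0.911) were not called either. With library totals Cnn1 was called lower (adjusted p = 0.0438) and Myl9 was not, and neither was with quantile normalization. Cald1, caldesmon, was called lower (333 and 393 FPKM; adjusted p = 0.0326), a call that held in 1 of 6 fits that left out a library. Cnn2 (175 and 197 FPKM; adjusted p = 0.134), Lmod1 (10.6 and 12.4 FPKM; adjusted p = 0.137), Actg2, Tpm1 and Tpm2 were not called with the authors' scaling.

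With NAC, 2 of the 10 adaptor genes were higher and 2 lower, while the level of Ilk itself was close in both groups. The gene that moved furthest was Lims2, which encodes PINCH-2 and stood at 10.5 ± 0.871 FPKM in NAC and 15.99 ± 1.01 FPKM in Control. Parva was lower as well, and Vcl and Tln2 were higher. NAC and Control were compared with limma on log2(FPKM + 1), with Benjamini-Hochberg adjustment over all 12733 genes and a call at an adjusted p under 0.05. In that test 8.80% of all genes were called, 6.08% as higher and 2.72% as lower. NAC and Control libraries did not overlap in 6 of the 10 genes, against 32.6% of all tested genes. The median log2 fold change was -0.022 over the 10 genes and -0.0063 over all tested genes, and the median absolute value was 0.11 and 0.12, so the typical shift of these genes was near that of the rest.

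**Figure D1:**
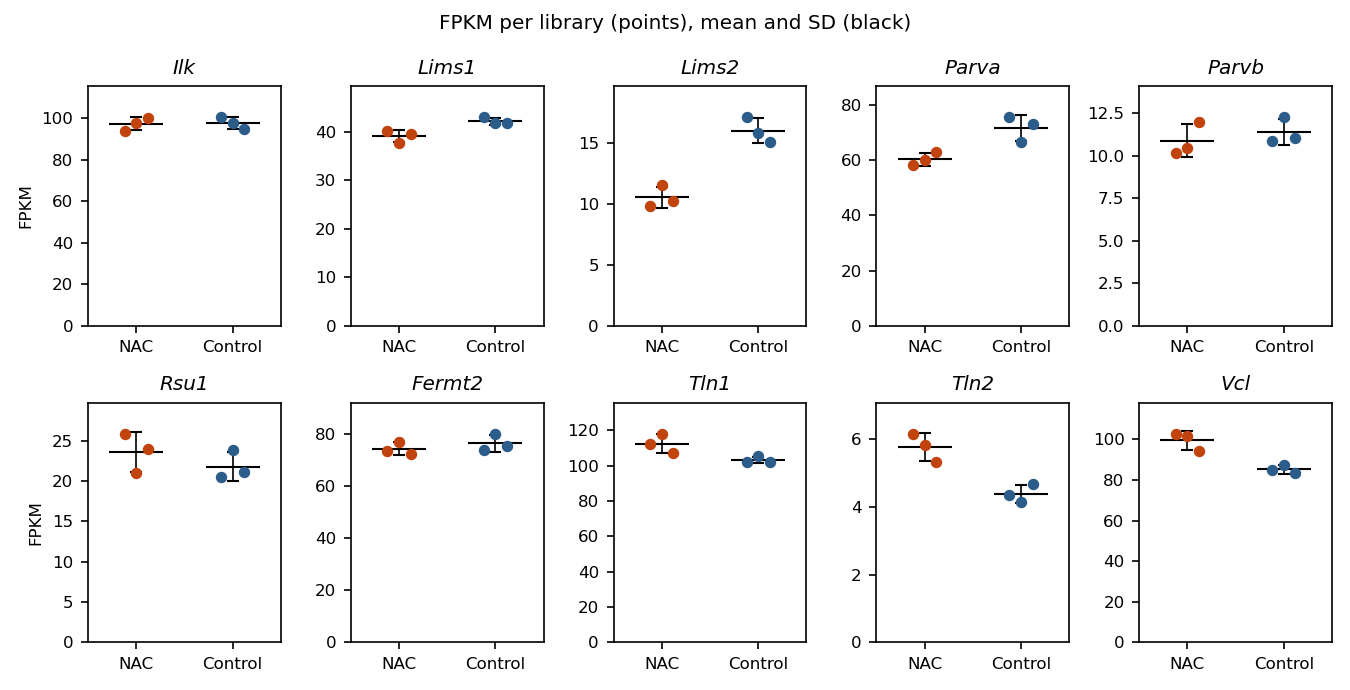
FPKM of the 10 genes in each library (points; NAC left, Control right), with the mean and SD in black and each axis starting at 0. The groups are apart in Lims1, Lims2, Parva, Tln1, Tln2 and Vcl, and overlap in Ilk, Parvb, Rsu1 and Fermt2.

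Ilk (ENSRNOG00000018993; chromosome 1, 170578889 to 170585189), the scaffold on which the complex assembles, stood at 94.1, 98.0 and 100.3 FPKM in NAC 1 to 3, against 100.5, 97.9 and 95.04 FPKM in Control 1 to 3. The groups covered the same range. The log2 fold change was -0.0051 ± 0.0405 (SE; limma adjusted p = 0.954), with a 95% interval of -0.10 to 0.091. Behind these values lay 2162 to 2420 reads per library. By the coordinates of the deposited table (their build is not stated in the sources read), Ilk overlaps Taf10 by 23 bases and Rrp8 by 728 bases on the opposite strand. Nor is it stated whether counting used strand, so reads in such overlaps cannot be assigned, for these genes or for those below. Overlaps here are between whole gene spans, introns included, and overlap of exons was not looked at.

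The PINCH genes encode proteins of LIM domains that bind the ankyrin repeats of ILK. Lims2 (ENSRNOG00000016021; chromosome 18, 24708115 to 24746159) stood at 9.84, 11.5 and 10.2 FPKM in NAC 1 to 3, against 17.1, 15.8 and 15.1 FPKM in Control 1 to 3. The highest NAC library lay below the lowest Control library. Lims2 fell by 0.56 ± 0.0741 on the log2 scale (SE; limma adjusted p = 0.00800), a NAC level 0.658 times that of Control, and 1.23% of tested genes had a lower fold change. The call held in each of the 6 leave-outs of a library (-0.62 to -0.52). These levels rest on 313 to 380 reads in NAC and 490 to 572 in Control, and the SD between NAC libraries was 8.28% of the mean where counting error alone gives 5.43%. Myo7b, on the opposite strand, overlaps Lims2 by 3831 bases and stood at 2.34 ± 0.185 FPKM in NAC and 2.13 ± 0.317 FPKM in Control (SD, n = 3; limma adjusted p = 0.624). Gpr17, also opposite and overlapping by its whole 1020 bases, stood at 0.222 ± 0.0728 FPKM in NAC and 0.545 ± 0.233 FPKM in Control (SD, n = 3), under the level tested, and its part in the Lims2 result was not tested. The smooth muscle marker Myh11 and the contractile gene Cald1 were lower with NAC in the same libraries. Their part in the Lims2 and Parva results was not tested. In bulk RNA fewer cells of a type and less RNA per cell cannot be told apart.

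Lims1 (ENSRNOG00000037765; chromosome 20, 27954433 to 28002082), which encodes PINCH-1, the more widely expressed of the pair, stood at 40.2, 37.7 and 39.5 FPKM in NAC 1 to 3, against 42.9, 41.7 and 41.8 FPKM in Control 1 to 3. The groups did not overlap, though the gap was small. Its log2 fold change of -0.10 ± 0.0404 did not pass (SE; limma adjusted p = 0.159). PINCH transcripts as a sum were 49.2 to 50.04 FPKM in NAC and 56.9 to 60.03 FPKM in Control. Lims2 made up 21.2 ± 1.93% of that sum in NAC and 27.5 ± 0.975% in Control (SD, n = 3). The difference of -6.30 percentage points had an exact two-sided permutation p of 0.10, the smallest that 3 against 3 libraries can give, and 0.15 adjusted over the 6 shares and ratios tested in this way.

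Parvins bind the kinase-like domain of ILK and, in turn, actin and paxillin. Parva (ENSRNOG00000015713; chromosome 1, 177249226 to 177408205), which encodes α-parvin, stood at 58.1, 59.8 and 62.9 FPKM in NAC 1 to 3, against 75.4, 66.4 and 72.9 FPKM in Control 1 to 3. Control 2 was the lowest of its group and lay nearest to the NAC libraries. Parva fell by 0.24 ± 0.0577 on the log2 scale (SE; limma adjusted p = 0.0489). Of the 6 leave-outs that call held in 1, without Control 2 (-0.30), and was lost without NAC 1, NAC 2, NAC 3, Control 1 or Control 3 (-0.27 to -0.20). Without Control 2, 859 of all tested genes were called higher and 347 lower. The other leave-outs called 264 to 456 higher and 51 to 141 lower, against 774 and 346 with all libraries. The Parva call was also lost without a filter on low values (adjusted p = 0.0810) and without a variance trend (adjusted p = 0.0905). Parvb (ENSRNOG00000055305; chromosome 7, 125189827 to 125277689), which encodes β-parvin, stood at 10.2 to 11.98 FPKM in NAC and 10.9 to 12.3 FPKM in Control, with overlapping groups (log2 fold change -0.061, 95% interval -0.25 to 0.12; limma adjusted p = 0.659). Its share of summed parvin FPKM was 15.3 ± 0.627% in NAC and 13.8 ± 1.60% in Control (SD, n = 3; exact permutation p = 0.30), so a difference between the parvins was not shown. That difference of 1.498 percentage points was 2.40 without Control 2 (exact permutation p = 0.10, the smallest possible with 5 libraries) and 0.905 without Control 1.

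Set against Ilk within each library, a measure on which library scaling has no bearing, the summed PINCH and the summed parvin transcripts lay at lower ratios in every NAC library than in any Control library. The log2 ratio of summed PINCH to Ilk was -0.91, -0.99 and -1.01 in NAC 1 to 3, against -0.74, -0.77 and -0.74 in Control 1 to 3. For summed parvin to Ilk it was -0.46, -0.48 and -0.42 in NAC 1 to 3, against -0.22, -0.32 and -0.18 in Control 1 to 3. Each comparison had an exact two-sided permutation p of 0.10, the smallest possible here (0.15 adjusted over 6). Rsu1 (ENSRNOG00000017595; chromosome 17, 80389157 to 80577027), a leucine-rich repeat protein that binds PINCH-1, stood at 25.9, 21.0 and 24.0 FPKM in NAC 1 to 3, against 20.5, 23.8 and 21.2 FPKM in Control 1 to 3. Its groups overlapped, and its log2 ratio to Ilk of -2.05 ± 0.181 in NAC and -2.17 ± 0.129 in Control did not differ beyond the spread (SD, n = 3; exact permutation p = 0.50). The difference of 0.12 became 0.024 without NAC 1, 0.053 without Control 1, 0.18 without Control 2 and 0.20 without NAC 2. With 234 to 292 reads per library and the shortest gene length of the set (831 bases), Rsu1 had the widest spread in each group (10.4% of the mean in NAC, 8.15% in Control), and its log2 fold change of 0.11 had a 95% interval of -0.10 to 0.32 (limma adjusted p = 0.490).

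**Figure D2:**
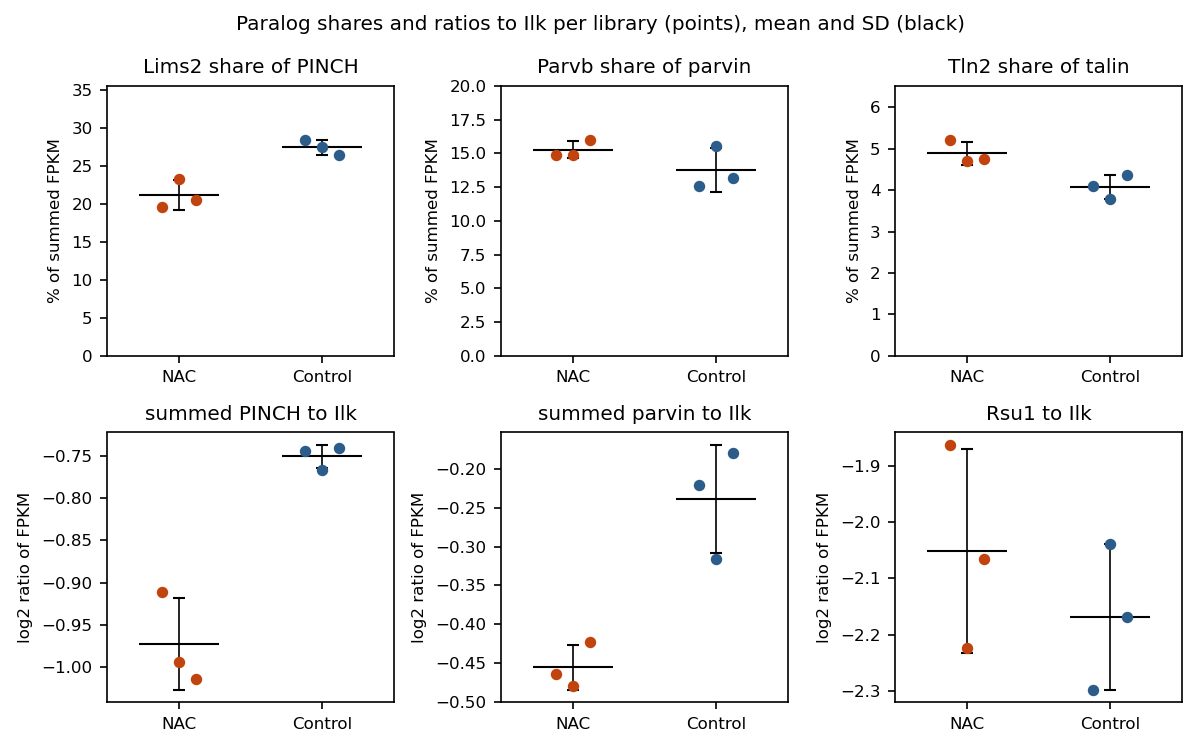
Share of the second paralog in summed FPKM (top, percent) and log2 ratio of FPKM to Ilk (bottom) in each library (points; NAC left, Control right), with mean and SD in black. The groups are apart for the Lims2 and Tln2 shares and for the PINCH and parvin ratios, and overlap for the Parvb share and the Rsu1 ratio.

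Of the genes for proteins that bind integrin tails, neither Fermt2 nor Tln1 passed the test, and Tln2 did. Fermt2 (ENSRNOG00000009102; chromosome 15, 19807808 to 19876408), the kindlin of mesenchymal cells, stood at 73.5, 77.0 and 72.3 FPKM in NAC 1 to 3, against 73.6, 79.9 and 75.3 FPKM in Control 1 to 3. Those groups overlapped (log2 fold change -0.039, 95% interval -0.15 to 0.070; limma adjusted p = 0.636). Tln1 (ENSRNOG00000016630; chromosome 5, 59033636 to 59063592), the general talin and the most abundant gene of the set in both groups, stood at 112, 118 and 107 FPKM in NAC 1 to 3, against 102, 105 and 102 FPKM in Control 1 to 3. The NAC libraries were the 3 highest, by a small margin. The log2 fold change of 0.12 ± 0.0441 did not pass (SE; limma adjusted p = 0.143). It turned to -0.052 when libraries were scaled to their totals in place of the authors' scaling. Each library held 11605 to 13865 reads of Tln1, and its SD in NAC was 4.79% of the mean where counting error gives 0.880%.

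Tln2 (ENSRNOG00000018373; chromosome 8, 73014137 to 73194837), a second talin known from muscle and brain, was the least abundant of the 10 genes. It stood at 6.15, 5.82 and 5.34 FPKM in NAC 1 to 3, against 4.36, 4.13 and 4.66 FPKM in Control 1 to 3, with 415 to 659 reads per library. The groups did not overlap. Tln2 rose by 0.33 ± 0.0771 on the log2 scale (SE; limma adjusted p = 0.0464), but the call was lost in each of the 6 leave-outs (0.29 to 0.38; adjusted p 0.0660 to 0.138), without a filter on low values (adjusted p = 0.0928) and with library totals (0.18, adjusted p = 0.111). Its share of summed talin FPKM was 4.88 ± 0.281% in NAC and 4.07 ± 0.293% in Control (SD, n = 3). That difference had an exact permutation p of 0.10, the smallest possible (0.15 adjusted over 6). Among 7 skeletal muscle markers only Des, the muscle intermediate filament desmin, passed 1 FPKM (3.07 ± 0.172 and 2.37 ± 0.607 FPKM in NAC and Control; SD, n = 3; limma adjusted p = 0.247). The summed level of the 7 was 3.64 to 3.99 FPKM in NAC and 2.44 to 3.80 FPKM in Control, and its part in the Tln2 result was not tested.

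Vcl (ENSRNOG00000010765; chromosome 15, 3455211 to 3544702), vinculin, stood at 103, 102 and 94.3 FPKM in NAC 1 to 3, against 84.9, 87.2 and 83.2 FPKM in Control 1 to 3. Every NAC library lay above every Control library. Vcl rose by 0.22 ± 0.0450 on the log2 scale (SE; limma adjusted p = 0.0310), a NAC level 1.17 times that of Control. The call held without NAC 3 or Control 2 and was lost without NAC 1, NAC 2, Control 1 or Control 3 (0.20 to 0.22). It also ended without a variance trend (adjusted p = 0.0713), with quantile normalization (0.15, adjusted p = 0.0786) and with library totals (0.050, adjusted p = 0.359). With 6098 to 7660 reads per library, the spread of Vcl between libraries (4.63% of the mean in NAC, 2.37% in Control) was above the counting error of 1.17% and 1.249%.

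The calls depend on how libraries are scaled. Recovered reads were 1.08 to 1.10 times the total implied by the authors' scaling in NAC libraries. In Control libraries they were 0.959 to 0.981 times that total. As deposited, the typical gene had a log2 fold change near 0, and library totals move that median to -0.16. Relative to that shifted median the values with library totals were -0.56 for Lims2, -0.26 for Parva, -0.12 for Lims1, -0.019 for Ilk, 0.11 for Tln1, 0.21 for Vcl and 0.34 for Tln2, close to those as deposited. Taken without that shift, library totals called 5 of the 10 genes as lower, adding Ilk (-0.18), Lims1 (-0.28) and Fermt2 (-0.21), and none as higher, in a setting where 32.9% of all genes were called. Limma voom was run on reads recovered from the FPKM values. Its library sizes were the totals implied by the authors' scaling, so it does not test that scaling. It called Lims2, Parva, Tln2 and Vcl in the same directions (adjusted p = 0.00139, 0.0163, 0.00808 and 0.00898) and none of the others, where 12.3% of all genes were called. Of all genes 7.66% were called with quantile normalization, 3.79% without a filter on low values and 5.93% without a trend in the variance.

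**Figure D3:**
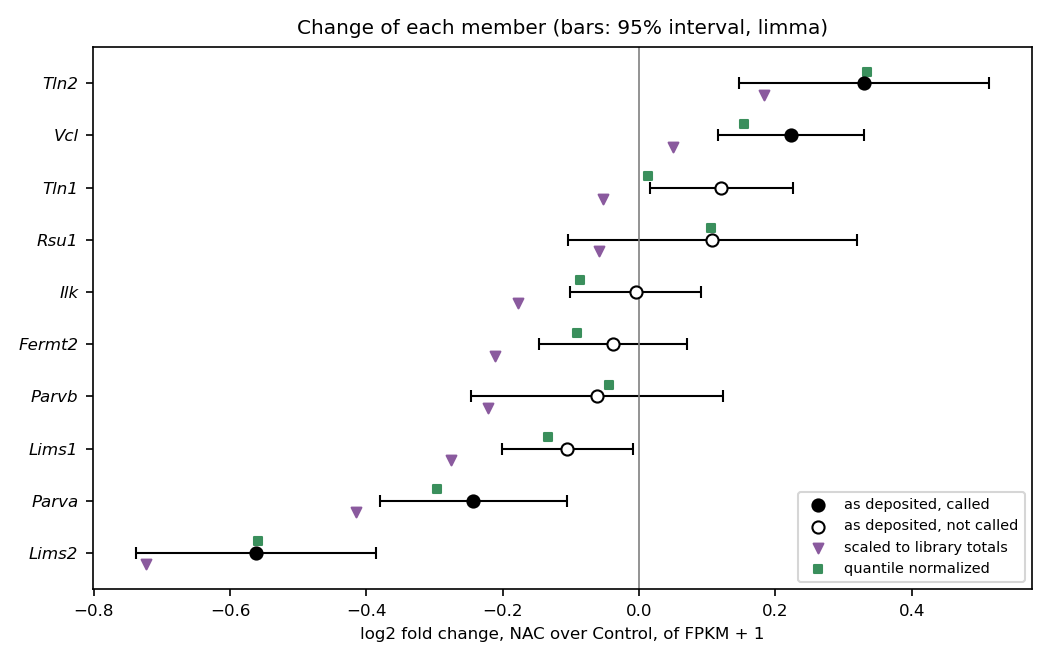
Log2 fold change of FPKM + 1, NAC over Control, of each gene as deposited (circles, filled where called; bars, 95% interval of limma), scaled to library totals (triangles) and quantile normalized (squares). Ilk, Lims1, Lims2, Parva, Parvb and Fermt2 are below 0 in all 3 scalings, and Tln2 and Vcl above 0. Tln1 and Rsu1 fall below 0 with library totals.

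In order of level per length, the Control libraries ran Tln1, Ilk, Vcl, Fermt2, Parva, Lims1, Rsu1, Lims2, Parvb and Tln2. Only the neighbours Fermt2 (76.3 ± 3.24 FPKM) and Parva (71.6 ± 4.65 FPKM) overlapped there (SD, n = 3). In the NAC libraries Vcl (99.6 ± 4.61 FPKM) came before Ilk (97.5 ± 3.14 FPKM) and Parvb (10.9 ± 0.961 FPKM) before Lims2 (10.5 ± 0.871 FPKM), and both of these pairs overlapped. The close relatives of these genes were barely detected: Parvg, the parvin of blood cells, was listed at 0 in NAC and averaged 0.0191 FPKM in Control, Fermt3, the kindlin of blood cells, averaged 0.133 and 0.0589 FPKM, and Fermt1, the kindlin of epithelia, averaged 0.00489 and 0.00965 FPKM. Ctnna1, α-catenin, a vinculin relative at cell-cell junctions, was abundant at 95.7 ± 2.34 FPKM in NAC and 87.8 ± 3.92 FPKM in Control (SD, n = 3; limma adjusted p = 0.137). Ctnnal1, another relative, stood at 4.04 and 3.99 FPKM (adjusted p = 0.930).

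Promoter windows from RefSeq (rat build GRCr8, 250 bases before to 50 after the annotated start) were found by symbol for 8 of the 10 genes. None was found for Parva, itself called, or for Fermt2. Those of the called genes Lims2, Vcl and Tln2 are shown, since these transcripts moved in opposite directions. Lims1 and Lims2 have 2 annotated starts each. The sequences run 5′ to 3′ on the gene's strand, and capitals mark the TEAD motif GGAATG on either strand.
Lims2, chr18:23827914-23828213, plus strand: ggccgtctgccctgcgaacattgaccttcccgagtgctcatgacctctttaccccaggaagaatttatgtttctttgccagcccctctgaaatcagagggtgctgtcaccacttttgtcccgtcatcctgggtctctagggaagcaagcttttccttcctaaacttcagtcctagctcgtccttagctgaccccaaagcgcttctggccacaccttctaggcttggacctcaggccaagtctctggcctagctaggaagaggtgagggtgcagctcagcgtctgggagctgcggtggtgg
Lims2, chr18:23837454-23837753, plus strand: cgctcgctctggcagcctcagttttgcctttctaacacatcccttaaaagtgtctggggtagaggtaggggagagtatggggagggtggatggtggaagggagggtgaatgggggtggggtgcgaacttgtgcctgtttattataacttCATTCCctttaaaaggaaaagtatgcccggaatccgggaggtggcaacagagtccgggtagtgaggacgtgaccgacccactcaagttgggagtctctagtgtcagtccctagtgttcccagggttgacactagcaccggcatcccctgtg
Vcl, chr15:3404751-3405050, minus strand: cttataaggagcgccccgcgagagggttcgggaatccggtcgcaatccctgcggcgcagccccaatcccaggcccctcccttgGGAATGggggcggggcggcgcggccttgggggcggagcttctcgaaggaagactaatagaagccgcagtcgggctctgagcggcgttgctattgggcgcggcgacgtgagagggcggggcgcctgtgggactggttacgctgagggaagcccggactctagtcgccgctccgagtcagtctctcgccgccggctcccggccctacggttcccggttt
Tln2, chr8:77133312-77133611, minus strand: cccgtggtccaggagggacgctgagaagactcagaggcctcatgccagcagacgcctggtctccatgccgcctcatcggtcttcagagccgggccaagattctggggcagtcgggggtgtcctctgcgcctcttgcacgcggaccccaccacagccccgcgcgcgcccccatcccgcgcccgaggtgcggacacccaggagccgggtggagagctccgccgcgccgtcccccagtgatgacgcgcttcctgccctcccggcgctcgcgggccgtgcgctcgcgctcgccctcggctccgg

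The Vcl and Tln2 windows were 68.7% and 73.3% G or C with 35 and 36 CpG pairs, and those of Lims2 were 55.7% and 54.3% with 8 and 9, where the median of 33469 windows was 51.7% (quartiles 44.7% and 60.3%). Ilk, which was not called, had 71.3% and 35 CpG pairs. GGAATG occurred in the Vcl window at -167 to -162 and, on the opposite strand, in the second Lims2 window at -101 to -96, and in 14.2% of all windows. A complete CArG box, the element bound by SRF, was found in 1.64% of windows and among these genes in Rsu1, at -50 to -41. The Vcl window opens with cttataagg, 9 of the 10 letters of a CArG box whose first base would lie outside it, as 8 of all windows did. The antioxidant response motif TGACNNNGC was in 12.1% of all windows and in 1 of the 8 genes, Lims1. The AP-1 motif TGANTCA, its own reverse complement, was in 7.33% of windows and none of the 8. The SP1 motif GGGCGG was in 33.1% of windows and 5 of the 8, with overlapping matches in Vcl, and TATAAA in 14.2% and 1 of the 8. Both strands were searched throughout, and a match describes letters, not a bound site. Counts among the 8 genes are per gene, with a match in either window of Lims1 or Lims2 enough. The shares of all windows are per window, so the 2 measures differ.

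Among genes that work beside these adaptors, the 7 lists other than integrins held 8 called of 93 tested genes (8.60%), close to the 8.80% of all genes. Of 12 tested regulators of talin and kindlin none was higher and 1 lower, with a median log2 fold change of -0.021. The gene called was Rapgef1, an exchange factor that activates Rap1 (10.8 ± 0.447 and 13.0 ± 0.572 FPKM in NAC and Control; SD, n = 3; limma adjusted p = 0.0411), a call that held in none of the 6 leave-outs. Of 13 tested binding partners of ILK, PINCH or parvin 1 was higher and none lower (median 0.046, turning to -0.10 with library totals). This was Tmsb4x, thymosin β4, an actin monomer binder (1580.03 ± 59.0 and 1241 ± 95.7 FPKM; adjusted p = 0.0209), whose call held in 1 of 6 leave-outs. In focal adhesion kinase and paxillin signalling none of 12 tested genes was higher and 1 lower (median -0.083). Nedd9, a docking protein of the Cas family, fell by 0.47 on the log2 scale to 13.5 ± 0.681 FPKM in NAC, against 19.0 ± 0.591 FPKM in Control (SD, n = 3; limma adjusted p = 0.00456), and its call held in all 6 leave-outs.

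At the actin end, none of 29 tested zyxin, α-actinin, tensin and related genes was higher and 3 were lower (median -0.067). They are LIM domain proteins. Pdlim5 stood at 81.4 ± 4.49 FPKM in NAC and 112 ± 11.3 FPKM in Control (SD, n = 3; limma adjusted p = 0.0195). Pdlim1 stood at 94.5 ± 0.940 and 107 ± 2.71 FPKM (adjusted p = 0.0278) and Fhl1 at 43.9 ± 2.83 and 52.4 ± 2.08 FPKM (adjusted p = 0.0431). Those calls held in 2, 1 and 0 of the 6 leave-outs. Integrin subunits were the list with the most calls, 6 of 13 tested higher and none lower (median 0.23, or 0.064 with library totals), among them Itga3 (67.1 ± 1.73 and 39.2 ± 1.92 FPKM; adjusted p = 5.20e-04), Itgav (adjusted p = 0.00598), Itgb1 (adjusted p = 0.0112) and Itga11 (adjusted p = 0.0278). The Itga3 and Itgav calls held in all 6 leave-outs, with library totals and with quantile normalization. Those of Itgb1 and Itga11 held in 4 and 2 leave-outs and ended with library totals (adjusted p = 0.291 and 0.299) and with quantile normalization (adjusted p = 0.507 and 0.182). The Itga5 and Itga8 calls held in 1 leave-out each, and that of Itga5 ended with library totals (adjusted p = 0.119). The series title names an integrin, so that list is not independent evidence of direction. Of 15 tested SRF-driven actin genes, a class to which vinculin belongs, none was higher and 1 lower (median -0.067), namely Cald1, the actin-binding protein caldesmon (333 ± 11.8 and 393 ± 19.9 FPKM; adjusted p = 0.0326). Among 10 tested YAP and TEAD targets 1 was higher and none lower (median -0.025), the receptor kinase Axl (135 ± 0.243 and 121 ± 0.665 FPKM; adjusted p = 0.0275). The Cald1 and Axl calls held in 1 of 6 leave-outs each, and the Axl value turned to -0.019 with library totals. The shares of all genes called, 6.08% higher and 2.72% lower, are the background for these counts.

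**Figure D4:**
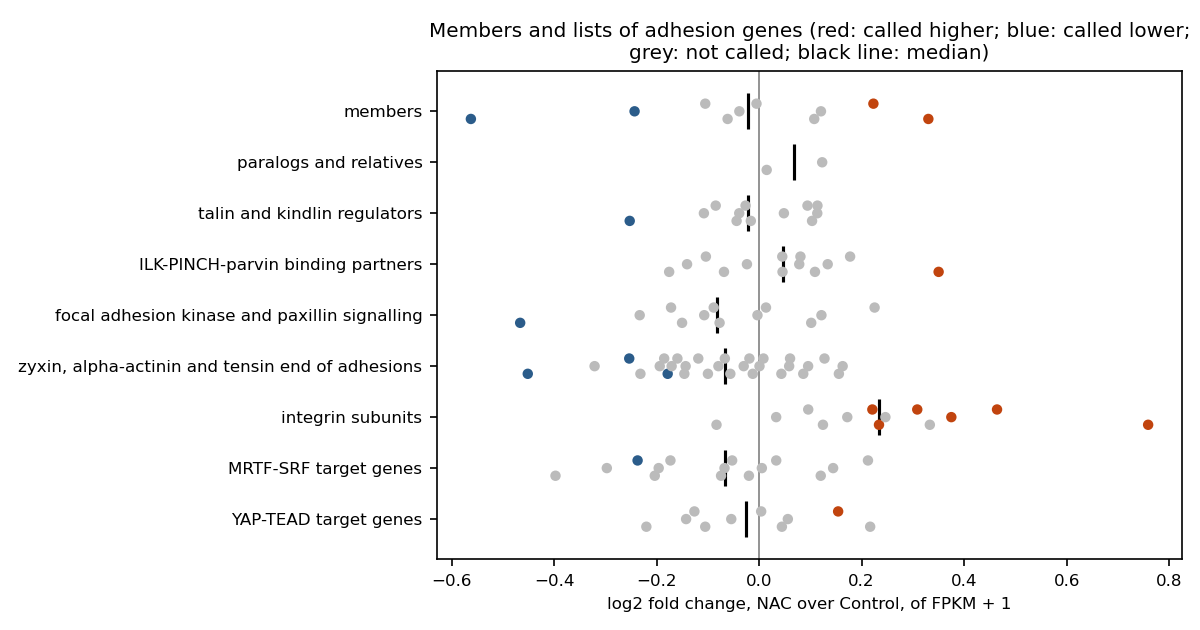
Log2 fold change of FPKM + 1, NAC over Control, of the 10 adaptor genes (members, top row) and of 8 lists of adhesion and cytoskeletal genes (points; red, called higher; blue, called lower; grey, not called), with the median of each row as a black line. Calls in the integrin row are all to the right of 0, while the adaptor row has calls on both sides.

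Genes whose profile over the 6 libraries came closest were sought among 8783 genes with a mean of at least 5 FPKM, by the root mean square distance of mean-centred log2(FPKM + 1). Closest to Ilk were Sdha (0.00704), Ndufs5 (0.0111) and Tmem165 (0.0116), none of them called. Closest to Tln1 were Ergic2 (0.0113), Macf1 (0.0116) and Utrn (0.0161), also not called. Closest to Vcl were Ssr3 (0.0121), Tnfrsf21 (0.0187) and Arf5 (0.0200), which were called as higher with NAC (limma adjusted p = 0.0199, 0.0322 and 0.0151). Neighbours were chosen by their values in these same libraries, so whether they were called largely follows from that choice.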

How the data were processed

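Per the labels' protocols, a SMARTer mRNA-Seq kit was used for the 6 libraries (3 NAC, 3 Control). The authors deposited 1 table of FPKM values with the gene length in bases. Nothing read here states the aligner, counter, strand setting or scaling method. Per the submitters' processing notes the builds were GRCm38 and mm10, of mouse, though the identifiers are those of rat. Columns headed N were taken as Control by elimination. The product of FPKM and gene length fell on whole multiples of a step particular to each library (tolerance 0.01, 100% of values), which gave the reads, and counting errors cover counting only.

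Genes averaging 1 FPKM or more were tested on log2(FPKM + 1), a scale that understates changes of low genes, with limma 3.58.1 in R 4.3.3 (lmFit, then eBayes with a trend; two-sided; no covariate). The test was checked on simulated data. Shares and ratios used exact permutation tests. Other work used Python 3.11.15.

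Members and lists were chosen with earlier results of these data known. Of 157 list entries 152 matched by name, 2 by an older name and 3 had no match. Besides the 10 members, named genes were, per list, up to 4 called genes of lowest adjusted p or the 2 most abundant where none was called, and 3 nearest profiles each of Ilk, Tln1 and Vcl. Marker genes, genes overlapping a member, Parvg, Fermt1, Fermt3, Itga5 and Itga8 are outside that rule and were chosen after their values were seen. The same holds for Acta2, Tagln, Cnn1, Myl9, Cnn2, Lmod1, Actg2, Tpm1 and Tpm2. Alternatives covered the pseudocount, low-value filter, scaling, eBayes settings, voom on recovered reads, a stricter threshold, the replicate number as a block and leaving out each library.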

Additional observations from a re-analysis of the deposited data

How the results depend on the processing

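Of the 10 genes, 2 were called higher and 2 lower. The number higher became 1 without a filter, with quantile normalization or without a trend, and 0 with library totals, with the replicate block or at an adjusted p under 0.01. The number lower became 1 without a filter, without a trend, with the replicate block or at an adjusted p under 0.01, and 5 with library totals. Leaving out 1 library gave 0 to 1 higher and 1 to 2 lower. Over all tested genes the leave-outs called 264 to 859 higher and 51 to 347 lower, against 774 and 346 with all libraries. Median-of-ratios scaling, voom, robust eBayes, a pseudocount of 0.1 and a minimum mean of 5 FPKM changed neither count of the 10 genes. None of these tests the authors' scaling. Median-of-ratios factors, taken on the deposited FPKM, were 0.998 to 1.002, and voom used the totals implied by that scaling. Lims2 kept its call in all 17 settings, whereas Parva, Vcl and Tln2 lost theirs in 9, 9 and 10. The median log2 fold change of the 10 genes (-0.022) became -0.19 when scaled to totals and -0.065 after quantile normalization, and lay between -0.036 and 0.00035 in the leave-outs. The signs of Tln1 and Rsu1 turned with library totals (-0.052 and -0.059). The value of Ilk turned to 0.020 without NAC 1 and 0.015 without Control 1, within a leave-out range of -0.026 to 0.020. Library totals shift all genes, as described above. The stricter threshold leaves the fit unchanged, where limma adjusted p was 0.0489 for Parva, 0.0464 for Tln2 and 0.0310 for Vcl. Without a filter the log2 fold changes of Parva (-0.24) and Tln2 (0.33) stayed the same, and the adjustment covered 19944 genes. The cause of the remaining losses was not tested.

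The shares and ratios kept their direction with 1 added to each FPKM, in the leave-outs and with the numbers taken as pairs, where the exact sign-flip test cannot go below 0.25. Under leave-outs the Lims2 share differed by -7.38 to -5.53 percentage points and the Tln2 share by 0.647 to 0.951, the Parvb share by 0.905 to 2.40 and the log2 ratio of Rsu1 to Ilk by 0.024 to 0.20. Same-numbered libraries correlated at 0.0627, 0.0589 and -0.0502 in their deviations from group means, and not every library correlated best with its own number. With 3 libraries a group, such values cannot show whether same-numbered libraries share a culture, animal or batch. With the replicate number as a block 466 genes were higher and 110 lower, in place of 774 and 346. Of the 10 genes only Lims2 was then called (limma adjusted p = 0.0887 for Parva, 0.111 for Tln2 and 0.0522 for Vcl). Rsu1, Lims2, Tln2 and Parvb rest on the fewest reads.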
